A study of Mus with 3 samples.

Results

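The hippocampus of normal control mice was described by the brightness of 23755 named genes on 1 one-colour Agilent mouse oligonucleotide array. The array, labelled NCO, was 1 of the 3 arrays of the series. It carried hippocampal RNA of 10 male mice, aged 6 weeks, of the outbred Slc:ddY stock. These mice received distilled water by mouth for 15 days and 5 µL of distilled water on day 8, by a route that is not stated for this group. On day 16 they ran a Y-maze, which tests working memory, and were then killed with CO2. RNA of 2 mice made 1 set, the 5 sets were pooled in equal amounts, and 200 ng of the pool was labelled with Cy3. The other arrays were used only for a second reading of the same genes. Each carried a pool from 10 males of the same stock and age that received 10 nmol of an amyloid β fragment in 5 µL into the cerebral ventricles on day 8. Those mice were given distilled water by mouth (ACO) or shochu oil at 2000 mg/kg/day, which is the oil that separates from sweet potato spirit (ASO). A pool of 10 mice on 1 array has no replicate. No test was possible and no p-value is given, so all values describe these 10 mice as 1 pool.

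The hippocampus is the part of the forebrain in which new episodic and spatial memories are formed. Excitatory signals pass from the granule cells of the dentate gyrus to the pyramidal cells of fields CA3 and CA1, with the small field CA2 between them, while scattered GABAergic interneurons limit and time their firing. Astrocytes, myelinating oligodendrocytes, microglia and blood vessels make up the rest of the tissue, which lies against the choroid plexus of the ventricle. The question set here was which genes and gene families are bright, dim or not measurable in this tissue.

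Each gene's level was the log2 of its net signal, that is, the median brightness of the spot minus the median of the local background, in scanner units. A gene with several probes was represented by its brightest. Its percentile was the percent of named genes that were dimmer. A gene was called well above background when its signal to noise score, the net mean divided by the SD of the local background, was at least 2.6. By that rule 13709 of 23755 genes, or 57.7%, were well above background, and 10046 were not. The brightest 10.0% of genes, 2376 in all, began at a level of 11.78. They held 73.8% of the summed signal of all named genes, and the brightest 1% alone held 23.0%. Genes well above background had a median level of 9.31, with quartiles at 7.50 and 11.12. The remaining genes had a median net signal of 5 units, against a median of 0 and an SD of 5.11 over 153 negative control spots. Of these control spots 1 passed the score, and the brightest reached 11 units.

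**Figure D1:**
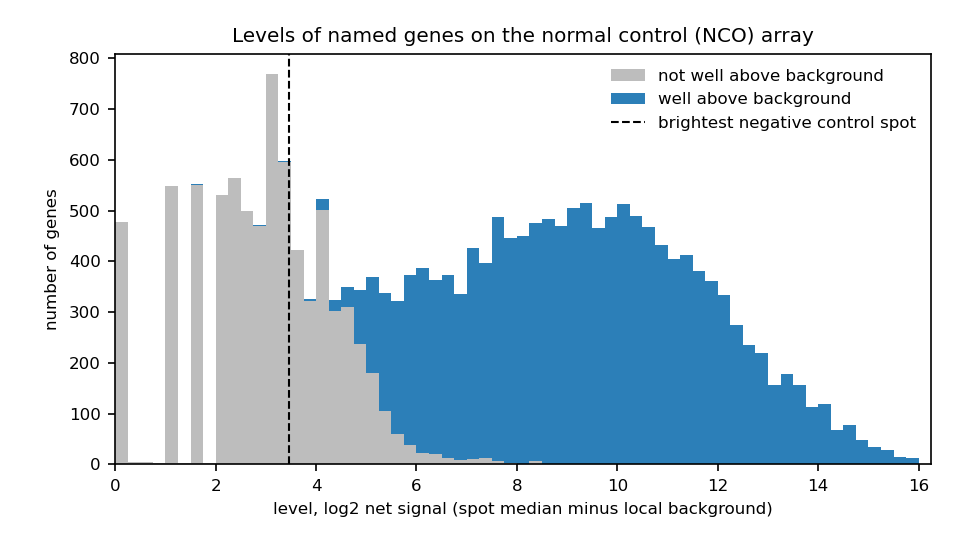
Number of named genes (vertical axis) by level, the log2 of the net signal in scanner units (horizontal axis), on the normal control array. Blue bars are the genes well above background, grey bars the others, stacked, and the dashed line marks the brightest of 153 negative control spots at 11 units. The 2425 genes with a net signal of 0 or less are not drawn, and the brightest genes reach the scanner's limit at a level of 16.0.

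The precision of a level was read from repeated spots and from repeated probes. For 252 probes printed at 10 spots each and well above background, the median SD over spots was 0.225 on the log2 scale, with a range of 0.068 to 0.37. Different probes of 1 gene differed far more. Of 6277 genes with at least 2 probes, 2809 had all probes well above background, and the median gap between their brightest and dimmest probe was 2.11 on the log2 scale (quartiles 0.975 and 3.59). Another 2005 such genes had probes on both sides of the threshold and 1463 had none above it. Probes also differ in brightness for reasons other than the amount of RNA, and an oligonucleotide array gives no scale per transcript length. Levels of different genes are therefore set against each other only coarsely. Where genes are said to lead a list or to be its brightest or dimmest, this gives the order of their brightest probes on this array. It is no order of RNA amounts. The gap of 2.11 is only a median, with an upper quartile of 3.59, and leaves out genes with probes on both sides of the threshold. Choosing the brightest probe favoured genes with many probes, since 51.1% of 17478 genes with 1 probe were well above background, against 85.8% of 1174 genes with 3 or more. Genes matched to RefSeq as protein-coding were well above background in 12554 of 20112 cases (62.4%), and long non-coding RNA genes in 307 of 1352 cases (22.7%).

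**Figure D2:**
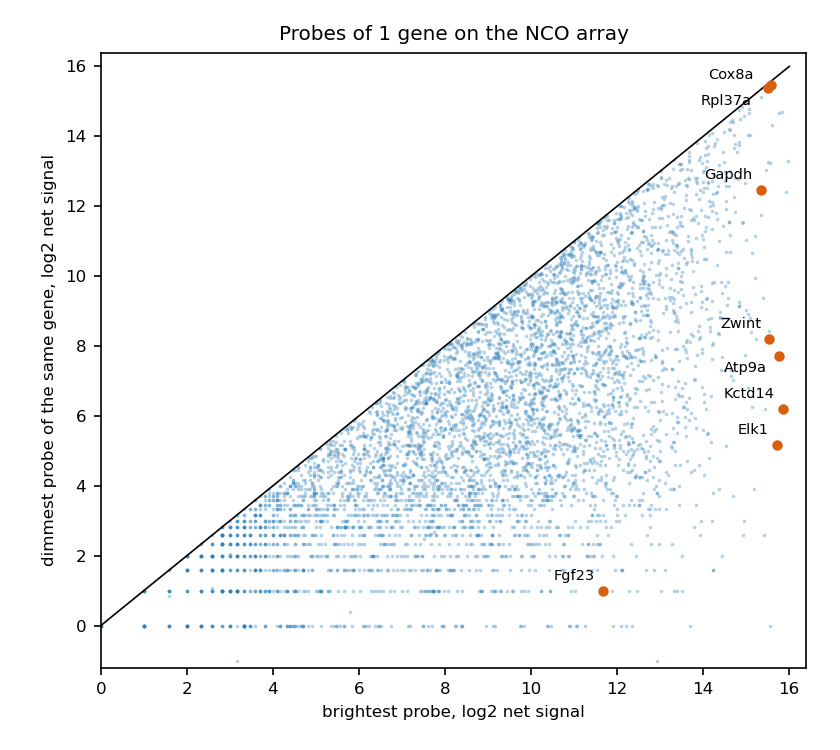
Level of the dimmest probe (vertical axis) against the level of the brightest probe (horizontal axis), both log2 net signal, for genes with at least 2 probes and a positive net signal for both. Each point is a gene, the line marks equal levels, and orange points are named genes. Cox8a and Rpl37a lie on the line, with both probes above 15, while Kctd14, Atp9a, Elk1, Zwint and Fgf23 lie far below it.

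The brightest genes were those that keep any large, energy-hungry cell running, together with a few products of neurons and glia. Actb, the cytoskeletal actin, Aldoa, the aldolase of glycolysis, and Cox6a1, a subunit of cytochrome c oxidase, had net signals of 65491, 65482 and 65474 units. These 3 genes had at least 50% of their pixels saturated, so their values are lower bounds. Cox6a1 reached a score of only 4.11, since the SD of its local background was large. Close to them were Gabarapl1 (15.99), an autophagy protein of the ATG8 family, Tuba1b (15.97) and Tubb2a (15.82), which are tubulins, and Cpe (15.93), carboxypeptidase E, which trims prohormones and neuropeptides. Calm2 (15.77) encodes calmodulin, the main calcium sensor of the cell. The ribosomal genes Rpl10 (15.82), Fau (15.76), Rps14 (15.58), Rps16 (15.55), Rpl29 (15.52) and Rpl37a (15.51) stood among the 25 brightest genes with an established name, as did the ferritin heavy chain gene Fth1 (15.75), the ubiquitin gene Ubb (15.59) and the oxidase subunit gene Cox8a (15.57). Glia were represented by Apoe (15.68), the lipid carrier of astrocytes, and Sparcl1 (15.64), which astrocytes secrete. The single Apoe probe was read at 10 spots. In this selection 2 genes with a predicted or clone name were passed over that were brighter than Rpl37a.

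For other genes among these 25, the value rested on a probe that a second probe did not match. Kctd14 stood at 15.85 by its brightest probe and at 8.16 and 6.21 by its others. Atp9a stood at 15.76 and 7.72, and Zwint, first described at the kinetochore, at 15.54 and 8.21. These genes are well above background by every probe, yet their rank among all genes differs widely between probes. No listed hit of the bright Zwint probe matched a RefSeq gene. The bright probe of Slc10a1 (15.77), the bile acid transporter of liver, lists 4 genes as hits, namely Slc10a1, Med16, Spc24 and 4930402H24Rik, and the second probe, which lists Slc10a1 alone, had a net signal of -5. The bright probe of Elk1 (15.73), a transcription factor of the ETS family, likewise lists Dusp22, Elk1, Glrx2 and Mfsd4a, and its second probe stood at 5.17. In all, 11 of the 25 genes had a single probe, 1 had another probe not well above background and 3 had a brightest probe that lists more than 1 gene. Across the array, 450 genes were represented by such a probe.

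Protein synthesis and energy supply filled much of the bright end. Of 82 genes named as cytosolic ribosomal proteins, 78 were well above background and 73 lay in the brightest 10.0%, with a median percentile of 98.6 against 50 for all genes. The 4 others were Rpl7l1, Rpl3l, Rpl10l and Rpl39l, all paralogs of a standard subunit. Mitochondrial ribosomal proteins followed with 75 of 76 genes and a median percentile of 83.5, led by Mrps26 (13.98), Mrps33 (13.27) and Mrps34 (13.17). Translation initiation and elongation factors reached 64 of 66 genes, led by Eif1 (14.70), Eif3g (14.38) and Eif4h (13.93). In the respiratory chain, all 42 complex I subunits, which pass electrons from NADH, were well above background, 31 of them in the brightest 10.0%, led by Ndufa13 (15.36), Ndufa3 (14.82) and Ndufb8 (14.73). Cytochrome c oxidase subunits reached 18 of 19 genes, and the exception was Cox8c. All 14 ATP synthase subunits lay in the brightest 10.0%, led by Atp5g2 (14.83), Atp5g1 (14.69) and Atp5b (14.55).

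Glycolysis, which turns glucose into pyruvate, has isoenzymes that differ between tissues. Of 24 genes, 20 were well above background and 14 lay in the brightest 10.0%, with a median percentile of 97.8. After Aldoa came Gapdh (15.34), Aldoc (15.02), the aldolase typical of astrocytes, and Gpi1 (14.85). Gapdh had 8 probes, all well above background, and they ranged from 12.48 to 15.34. The genes not well above background were Pklr, the pyruvate kinase of liver and red cells, and Pgk2, Gapdhs and Ldhc, the isoenzymes of sperm. The vacuolar ATPase is the proton pump that loads synaptic vesicles and acidifies lysosomes. Of 25 genes with its subunit names, 20 were well above background, led by Atp6v0c (14.99), Atp6v1f (14.21) and Atp6v0a1 (14.20), and the other genes were Atp6v1e2, Atp6v1g3, Atp6v0d2, Atp6v0a4 and Atp6v1b1, which were singled out after their values were seen. Proteasome subunits reached 38 of 40 genes, led by Psmb5 (14.97), Psmc3 (14.52) and Psmc1 (14.32), and the exceptions were Psmb11 and Psma8, subunits of thymus and testis.

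The cytoskeleton and the protein-handling machinery were bright as well. Of 20 tubulin and actin genes, 17 were well above background and 10 lay in the brightest 10.0%. Tubb5 (14.63) followed Tubb2a, whereas Actc1, the actin of heart, Actg2, that of smooth muscle, and Tubb1, the tubulin of platelets, were not well above background. Ubiquitin-conjugating enzymes reached 29 of 34 genes, led by Ube2v1 (13.70), Ube2l3 (13.40) and Ube2j2 (13.06). Of 16 genes with a chaperonin-like name 10 passed, and the 8 that are subunits of the folding complex itself (Tcp1, Cct2, Cct3, Cct4, Cct5, Cct6a, Cct7 and Cct8) were well above background, between 9.77 and 13.43. Rab GTPases, which direct vesicle traffic, reached 57 of 67 genes, led by Rab15 (14.41), Rab6b (14.13) and Rab3a (13.66). Protein phosphatase subunits reached 56 of 65 genes, led by Ppp3ca (14.88), Ppp1r9b (14.78) and Ppp3r1 (13.98). Ppp3ca and Ppp3r1 are subunits of calcineurin, and Ppp1r9b, or spinophilin, ties a phosphatase to dendritic spines.

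All 8 genes chosen as markers of hippocampal cell types were well above background. Of these, Gfap, Mbp, Cx3cr1 and Gad1 are made across the brain and do not set the hippocampus apart from other regions. Calb1, the calcium buffer calbindin of dentate granule and CA1 cells, stood at 10.14 (percentile 78.0), and its second probe at 6.17. Prox1, the transcription factor of granule cells, was the dimmest of the 8 at 7.60 (percentile 57.4). Wfs1, an endoplasmic reticulum protein typical of CA1, stood at 12.35 (percentile 93.2). Camk2a, the kinase of excitatory synapses, stood at 12.16 by 1 probe and 10.54 by the other. Glial markers lay in the same range. Gfap, the intermediate filament of astrocytes, stood at 11.40, with its other probes at 11.13 and 7.19. Mbp, a structural protein of myelin, stood at 11.94, 11.89 and 6.98. Cx3cr1, the fractalkine receptor of microglia, stood at 11.59 and 9.20. Gad1, which makes GABA in interneurons, had 1 probe, at 12.24 (percentile 92.6). Apart from Calb1 and Prox1, the 6 markers lay between percentiles 87.4 and 93.2 and within the gap between probes, so no order among them was read.

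The marker lists of the major cell classes were almost complete. In bulk tissue a level joins the number of cells with the RNA each holds, and these cannot be told apart. All 10 genes of excitatory neurons were well above background, 8 of them in the brightest 10.0%, with a median percentile of 96.9. Camk2b (15.14), the β subunit of the same kinase, Npcd (15.05), the file's name for the pentraxin receptor Nptxr, Ncdn (14.61) and Itpka (14.15), an inositol kinase of dendritic spines, led the list. The second probes of Camk2b, Npcd and Ncdn stood at 10.66, 6.81 and 10.69, and Itpka had 1 probe. The lower end of the list was still bright: Camk2a, Slc17a7 (11.47), the vesicular glutamate transporter, and Neurod6 (11.39), a transcription factor of pyramidal cells. All 15 astrocyte genes were well above background, with a median percentile of 97.6. Without genes of a single probe, which left few genes, that median fell to 80.0. Besides Apoe and Sparcl1, the list was led by Clu (15.31), the carrier protein clusterin, and Aldoc, and it ended with Gjb6 (11.03), Aqp4 (10.89) and Gja1 (8.95), a connexin, a water channel and another connexin. All 14 oligodendrocyte genes were well above background, with a median percentile of 92.3. Mal (13.71), Trf (13.59), the iron carrier transferrin, and Cnp (12.97) were among the brightest, and Aspa (9.39), Ugt8a (9.27) and Opalin (8.87) dimmest.

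The lists of microglia, precursor cells, vessels and newborn neurons had lower medians. All 17 microglial genes were well above background, with a median percentile of 81.2, among them Csf1r (13.34), the survival receptor of microglia, Itgam (12.96) and Siglech (12.18) at the bright end and Gpr34 (8.01), Sall1 (6.78) and Fcrls (6.25) at the dim end. Itgam passed by 1 of its 3 probes, the next standing at 5.73. All 9 genes of oligodendrocyte precursors were well above background, with a median percentile of 66.8. Olig1 (12.05), Gpr17 (11.85), Sox10 (10.40) and Pdgfra (9.30) led, and Lhfpl3 (8.48), Olig2 (7.67) and C1ql1 (6.38) were dimmest. With genes of a single probe left out, Lhfpl3 alone remained of the precursor list. It lay at percentile 64.2 among all genes and at 48.6 among genes with 2 or more probes. Endothelial and pericyte genes reached 15 of 17, led by Ly6c1 (12.54), the glucose transporter gene Slc2a1 (11.86), Flt1 (11.78) and Vtn (11.62). Flt1 passed by 1 of its 2 probes, the other standing at 2.59. Tek (4.86) and Kcnj8 (3.46) were not well above background, and Pecam1 stood at 6.15. Genes of newborn neurons reached 7 of 11 (63.6%), against 57.7% of all genes. Stmn1 (14.52), Tubb3 (12.15), Sox4 (9.91) and Dcx (8.66) were brightest, while the cell division genes Mki67 (5.32) and Top2a (3.0) and the precursor gene Eomes (2.32) were not well above background. The 2 other probes of Dcx, the doublecortin of migrating neurons, stood at 4.0 and 3.32. The median percentile of this list was 55.2. Without genes of a single probe, the middle gene was Neurod1. It lay at percentile 56.7 among all genes and at 39.5 among genes with 2 or more probes.

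**Figure D3:**
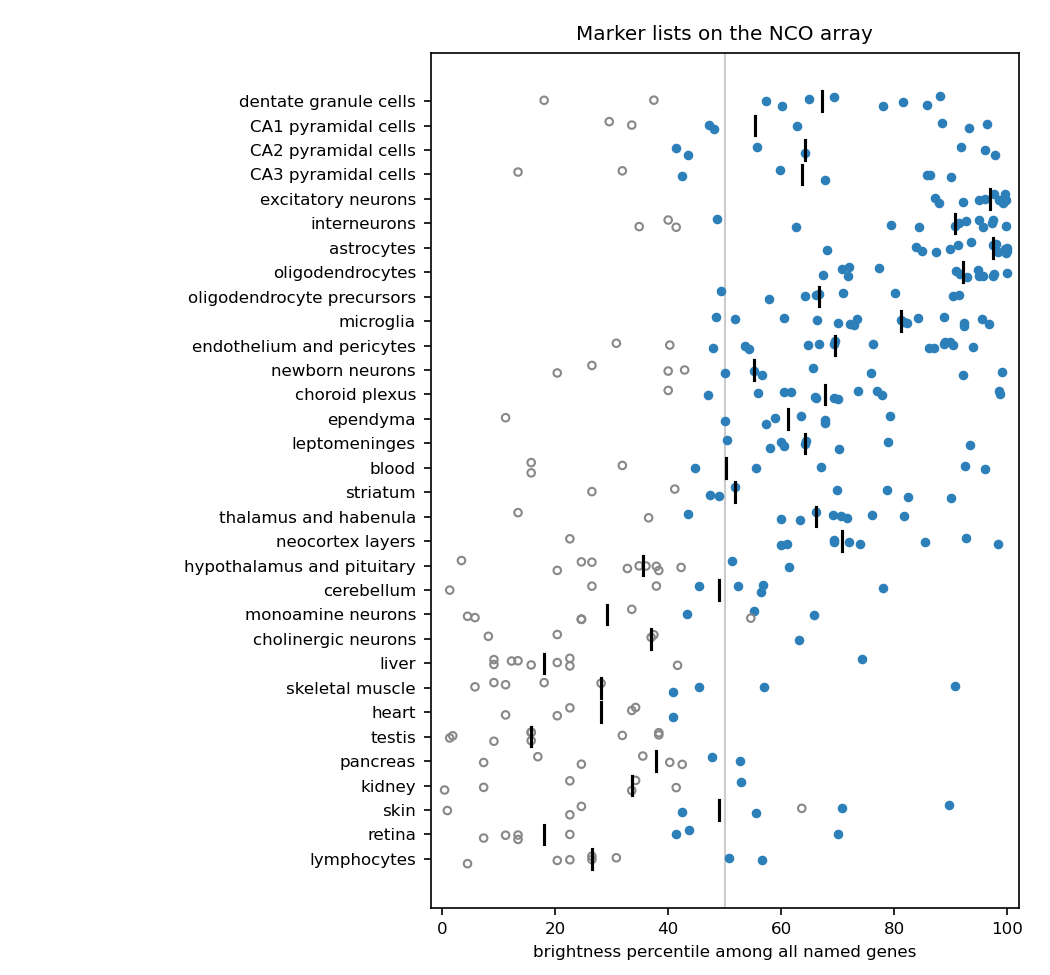
Brightness percentile among all named genes (horizontal axis) for the marker genes of 32 cell types and tissues (rows). Each point is a gene, filled where it was well above background and open where it was not; black bars are list medians and the grey line is the 50th percentile. Excitatory neurons, astrocytes and oligodendrocytes sit at the right, with medians of 96.9, 97.6 and 92.3, and testis, liver and retina at the left, with medians of 15.8, 18.1 and 18.1.

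Interneurons were marked by both their transmitter genes and their peptides. Of 15 genes, 12 were well above background, with a median percentile of 90.7. Cck (15.41), cholecystokinin, was among the brightest genes of the array, though pyramidal cells also make it. Sst (13.60), somatostatin, Slc32a1 (13.57), the vesicular GABA transporter, and Cnr1 (percentile 95.8), the cannabinoid receptor, followed. The second probe of Slc32a1 stood at 5.67. Nos1 (5.04), Calb2 (4.81) and Reln (4.0) were not well above background, each by 1 probe. Reln encodes reelin and Calb2 calretinin, both made by subsets of interneurons. Cx3cl1 (13.80), the neuronal ligand of the microglial receptor Cx3cr1, lay at percentile 97.9.

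Each hippocampal field had genes well above background, with a wide spread inside each list. The medians of the small CA1 and CA2 lists, at percentiles 55.5 and 64.3, rested on genes with a single probe: without these, which left few genes, they fell to 29.0 and 24.9. Of 10 dentate granule cell genes, 8 were well above background, with a median percentile of 67.2. Stxbp6 (11.50), Lct (11.17), Dock10 (10.57) and Calb1 were brightest. C1ql2 stood at 7.94, close to Prox1, while Npnt (4.39) and Tdo2 (2.00), an enzyme of tryptophan breakdown, were not well above background. Of 8 CA1 genes, 6 passed. Mpped1 (13.26), Wfs1, Pou3f1 (11.54) and Fibcd1 (8.29) led, Man1a (6.04) was dim, and Lefty1 (3.81) and Gpr161 (3.32) did not pass. All 7 CA2 genes passed, although CA2 is the smallest field. Pcp4 (13.76), Necab2 (13.12) and Rgs14 (12.09), a signalling regulator that restrains plasticity in CA2, lay in the brightest 10.0%, ahead of Cacng5 (8.48), Amigo2 (7.38), Stard5 (5.43) and Map3k15 (5.04). Of 8 CA3 genes, 6 passed: Grik4 (11.78), a kainate receptor subunit, Plagl1 (11.23), Bok (11.14), Socs2 (8.92), Homer3 (7.89) and Nptx1 (5.25). Cdh24 (3.58) and Iyd (1.00) did not.

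Genes of structures that touch the hippocampus were mostly well above background. Choroid plexus genes reached 13 of 14, with a median percentile of 67.7. Ttr (14.20), transthyretin, and Enpp2 (14.07), which oligodendrocytes also make, lay in the brightest 10.0%, followed by Clic6 (10.12) and Folr1 (10.03). Aqp1 (7.99), Calml4 (7.40) and Slc4a5 (6.02) were dimmer, and F5 (4.81) did not pass. Ependymal genes, of the ciliated lining of the ventricle, reached 7 of 8: Rarres2 (10.30), Dynlrb2 (8.92), Rsph1 (8.92, and 4.32 by its second probe), Ccdc153 (8.39), Tmem212 (7.79), Spag6 (7.60) and Foxj1 (6.51), without Ak7 (0.00). All 9 leptomeningeal genes passed, from Dcn (12.40), Col1a2 (10.26), Slc6a13 (9.22) and Col1a1 (8.51) to Aldh1a2 (7.92), Col3a1 (7.69) and Igf2 (6.55). Of 8 blood genes, 5 passed (62.5%), against 57.7% of all genes. These were the globins Hba-a1 (13.10), Hbb-b1 (12.22) and Hbb-b2 (8.82), the haem enzyme gene Alas2 (7.35) and S100a9 (5.64). Slc4a1 (3.58), S100a8 (1.58) and Ltf (1.58) did not pass. How much of these signals came from tissue carried over in the dissection was not tested.

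Lists of neighbouring brain regions were mixed, and those of neocortex and thalamus passed in shares like those of the hippocampal fields. Neocortical layer genes reached 9 of 10, led by Crym (14.07), Tbr1 (12.26), Hsd11b1 (11.11) and Fezf2 (9.66), and Foxp2 (2.58) did not pass. Several of these are also hippocampal genes. Striatal genes reached 7 of 9, led by Penk (11.80), Ppp1r1b (10.68), Pde10a (10.23) and Rgs9 (9.18), but Drd2 (3.0) and Adora2a (5.00), which mark indirect-pathway neurons, did not pass. Thalamic and habenular genes reached 9 of 11, led by 3110047P20Rik (10.61), the file's name for Nwd2, Tac2 (9.93), Prkcd (9.37) and Zic1 (9.26). Synpo2 stood at 5.43, and at 2.32 by its next probe. Tcf7l2 (4.25) and Gbx2 (1.00) did not pass. Of 8 cerebellar genes, 5 passed (62.5%), against 57.7% of all genes. These were Calb1, which the hippocampus shares, Gdf10 (7.52), Cbln1 (7.48), Barhl1 (6.88) and Pcp2 (5.75). The second Cbln1 probe stood at 3.70, and that of Barhl1 had no positive net signal. Car8 (4.46), Cbln3 (3.0) and Gabra6, with a net signal of -7, did not pass.

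Genes of neurons that reach the hippocampus only by their axons, and of tissues outside the brain, were mostly not well above background. Of 12 hypothalamic and pituitary genes, Pomc (8.11) and Oxt (6.67) passed; Trh (5.21), Avp (4.52), Prl (3.0), Cga (2.81) and Gh, with a net signal of -4, were among those that did not. Of 10 genes of monoamine neurons, Ddc (8.68, and 4.0 by its second probe), Th (7.29) and Dbh (5.39) passed, while the serotonin transporter gene Slc6a4, the noradrenaline transporter gene Slc6a2 and the dopamine transporter gene Slc6a3 did not. Of 5 cholinergic genes, Ache (8.36 and 8.31 by its 2 probes), the enzyme that breaks down acetylcholine, passed. Chat (4.39), which makes acetylcholine, Slc18a3 (4.32), Slc5a7 (2.32) and Isl1 did not. Liver genes passed in 1 of 10 cases, Apoa2 (9.69), whose second probe had a net signal of -1, while Tat (5.09), Cps1 (2.58), Cyp2e1 (2.58), Apoa1 (0.93), Fgb and G6pc did not. None of 9 testis genes passed, among them the protamine genes Prm1 (4.52) and Prm2 (3.58), Tnp1 (4.52) and Ldhc.

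Other tissues passed by 1 to 4 genes per list, in each case a smaller share than the 57.7% of all genes. Skin came closest to that share, with 4 of 8 genes. Of 9 skeletal muscle genes, Pvalb (11.89), which interneurons also make, Acta1 (7.55), Tnni2 (5.75) and Myh4 (4.95) passed, and Mylpf, Ckm and Tnnt3 were among those that did not. Among 6 heart genes, Tnnt2 (4.95) passed, and Nppa, Myl2, Tnni3, Myh6 and Myl7 did not. Both insulin genes, Ins2 (6.91) and Ins1 (6.11), passed among 8 of pancreas, against Ctrb1, Cel, Pnlip, Iapp, Gcg and Cpa1. Among 7 kidney genes, Nphs1 (6.95) passed, and Aqp2, Kap, Slc34a1, Slc12a1 and Umod were among those that did not. Skin gave Lor (11.75), Sbsn (9.26), Krt1 (7.36) and Krt5 (5.25) of 8 genes, each by 1 probe or, for Krt5, with a second at 3.32; Flg, Krt14 and Krtdap did not pass. Krt10 had a level of 8.41 but a score of 2.44, just short of the threshold. Of 8 retinal genes, Rom1 (9.20), Sag (5.46) and Opn1mw (5.04, and 3.17 by its second probe) passed. Opn1sw, Gnat1, Pde6b and Crx were among those that did not. Lymphocyte genes passed in 2 of 8 cases, Cd4 (7.51, and 2.485 by its second probe) and Cd3e (6.6). Cd3d, Cd8a, Cd2, Cd79a and Ms4a1 were among those that did not.

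The sex given in the labels could be read as well. Ddx3y (9.56) and Eif2s3y (8.66), which lie on the Y chromosome, were well above background. Xist, the RNA that silences an X chromosome in females, was not, by either probe (3.0 for the brighter). Uty (4.39), Usp9y (2.58), Kdm5d (2.00) and Sry, at a net signal of 0, were not well above background either.

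Glutamate receptors carry fast excitation between hippocampal neurons. All 4 AMPA receptor subunits, which carry most of the current, passed: Gria1 (11.43), Gria3 (10.39), Gria4 (9.95) and Gria2 (8.80). Their order was not read, since the second probes of the last 3 stood at 8.90, 7.21 and 7.79. NMDA receptor subunits, the coincidence detectors of synaptic plasticity, passed in 5 of 7 cases. The obligatory subunit Grin1 (11.59), Grin2c (11.26), Grin2b (10.98), Grin2a (9.74) and Grin3a (6.93) passed, and Grin3b (4.46) and Grin2d (4.25) did not. Kainate and delta receptor subunits passed in 6 of 7 cases: Grik4, Grik5 (10.90), Grik3 (8.82), Grik1 (7.03), Grik2 (5.91 by both of its probes) and Grid1 (5.86). The second Grik3 probe stood at 3.46. The median percentile of these subunits was 53.3, and 40.1 with genes of a single probe left out. Metabotropic receptors, which act through G proteins, passed in 7 of 8 cases. Grm5 (13.10) was brightest, and Grm7 (9.90), Grm3 (8.86), Grm2 (8.72), Grm4 (7.37) and Grm8 (7.2) also passed. Grm6, the receptor of retinal bipolar cells, had a net signal of -2.

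GABA receptors carry the inhibition of the hippocampus. Of 19 GABA-A subunits, 13 passed, with a median percentile of 79.4. Gabrb2 (12.15), Gabrb1 (11.40), Gabra3 (11.36) and Gabra2 (11.17) had the brightest probes, and the extrasynaptic subunits Gabra5 (10.77) and Gabrd (10.46) lay within the gap between probes. Gabra3 passed by 1 of its 2 probes, the other standing at 2.0. Gabra6, a subunit of cerebellar granule cells, Gabre and Gabrq were among those that did not pass. The GABA-B receptor is a pair of subunits, and both passed, Gabbr1 at 13.41 and Gabbr2 at 7.75. The gap was not read as unequal amounts, since the 3 probes of Gabbr1 ranged from 8.44 to 13.41 and those of Gabbr2 from 4.25 to 7.75.

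**Figure D4:**
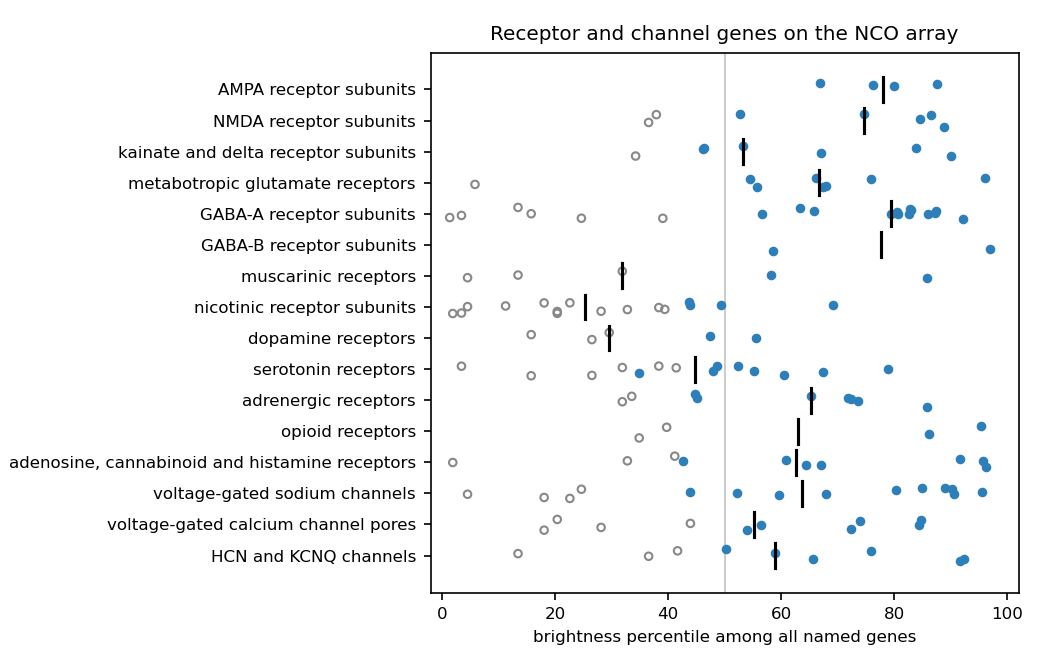
Brightness percentile among all named genes (horizontal axis) for receptor and channel genes grouped by class (rows). Each point is a gene, filled where well above background and open where not; black bars are class medians and the grey line is the 50th percentile. AMPA, GABA-A and GABA-B receptors have the highest medians, at 78.1, 79.4 and 77.8, and nicotinic and dopamine receptors the lowest, at 25.4 and 29.6. With the median of each gene's probes, GABA-A and GABA-B receptors stood at 66.4 and 67.7, below NMDA receptors at 71.0.

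Acetylcholine and the monoamines reach the hippocampus from nuclei elsewhere in the brain. Of 5 muscarinic receptors, Chrm1 (11.15), the main type of pyramidal cells, and Chrm3 (7.71) passed, and Chrm2 (3.58), Chrm4 (1.00) and Chrm5 did not. The second Chrm1 probe stood at 5.21. The median percentile of this list was 31.9. Chrm1 alone had more than 1 probe. It lay at percentile 85.8 among all genes and at 77.7 among genes with 2 or more probes. Nicotinic subunits passed in 4 of 16 cases. Chrnb2 (9.10), Chrna4 (6.39), Chrna1 (5.49) and Chrna7 (5.45) passed, whereas Chrng, Chrnb3 and Chrnd, at net signals of -3 to -6, were among those that did not. Chrna4 with Chrnb2, and Chrna7 alone, form the common receptors of the brain. Of 5 dopamine receptors, Drd5 (7.36) and Drd1a (6.07) passed, while Drd4 (3.32), Drd2 (3.0) and Drd3 (1.58) did not. Serotonin receptors passed in 8 of 14 cases (57.1%), close to the 57.7% of all genes. They were led by Htr2c (10.25), Htr7 (8.87), Htr4 (8.00) and Htr5b (7.29). The second Htr4 probe had no positive net signal. Htr2c is abundant in the choroid plexus, and its probes disagreed, with the second at 5.73. Adrenergic receptors passed in 7 of 9 cases, led by Adra2c (11.14), Adra1d (9.60), Adra2a (9.47) and Adra1b (9.40), while Adra1a (3.81) was among those that did not pass.

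Among the other modulator receptors, Adora1 (13.18), the inhibitory adenosine receptor, Cnr1 and Hrh3 (12.06), the histamine autoreceptor, lay in the brightest 10.0%. Adora2b (8.84) came next, and 7 of 10 genes of that list passed. Its median percentile was 62.6, and 44.7 with genes of a single probe left out. Adora2a, Hrh4 (3.70) and Hrh2, at a net signal of -6, did not. Of 4 opioid receptors, Oprm1 (12.92) and the nociceptin receptor gene Oprl1 (11.20) passed, and Oprd1 (4.75) and Oprk1 (4.0) did not. The value of Oprm1 rests on 1 of its 2 probes, as the other had a net signal of 0.5, and the second Oprl1 probe stood at 5.00.

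Voltage-gated channels set the firing of neurons. The sodium channels passed in 10 of 14 cases. The accessory subunit Scn2b (12.94), the pores Scn1a (11.88) and Scn2a1 (11.81), and Scn3b (11.60) led, and the sensory neuron channels Scn10a (2.58) and Scn9a, at -3 units, and Scn7a (2.00) were among those that did not pass. Calcium channel pores passed in 6 of 10 cases (60.0%), close to the 57.7% of all genes. They were led by Cacna1i (percentile 84.7), Cacna1a (10.96), Cacna1h (9.65) and Cacna1g (9.48). Cacna1c (3.17), Cacna1b (2.32) and Cacna1f (2.00) did not pass. Cacna1c and Cacna1b are textbook neuronal channels, and each had a single probe here. Over all 26 genes named as calcium channel subunits, 19 passed, led by Cacna2d3 (12.29), Cacng7 (12.07) and Cacna2d1 (percentile 91.3). The second probes of Cacna1i, Cacna1h and Cacng7 stood at 5.13, 4.64 and 5.09. Of 9 HCN and KCNQ channels, 6 passed, Hcn2 (12.19) and Kcnq5 (8.65, and 3.91 by its second probe) among them, while Kcnq1 (4.25) and Hcn4 (1.00) were among those that did not. Over 95 potassium channel names, 64 passed, led by Kcnj10 (13.52), the glial channel that clears potassium, Kcna1 (13.05) and Kcnip3 (12.86, and 3.91 by its second probe).

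The machinery of the synapse was well above background on both sides of the cleft. Of 24 genes of synaptic vesicles and their fusion, 22 passed and 11 lay in the brightest 10.0%, with a median percentile of 88.0. That median rested on genes with a single probe, and it fell to 42.7 without them. Syn2 (15.20), Syt1 (14.47), the calcium sensor of release, and Cplx2 (14.21) were among the brightest. Snap25, a core protein of fusion, stood at 12.14. Syt2 (4.58) did not pass, and Syt7, at a level of 7.82, missed the threshold with a score of 2.11. Synaptotagmins as a family passed in 11 of 17 cases, with Syt11 (13.70) and Syt5 (13.52) next to Syt1. Postsynaptic scaffolds passed in 14 of 16 cases, with a median percentile of 81.8. Dlgap3 (13.98), Nrgn (13.68), which binds calmodulin in spines, Dlg3 (13.42) and Shank3 (11.61, and 4.59 by its second probe) led, and Dlg4 (11.58), the scaffold PSD-95, lay at percentile 88.8. Shank2 (3.0) was among those that did not pass.

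Calcium signalling downstream of the synapse was bright. Of 14 calmodulin, calcineurin and calcium sensor genes, 13 passed and 8 lay in the brightest 10.0%. Calm2, Ppp3ca and Hpca (14.74), hippocalcin, were among the brightest. Ncald (10.57) and Calml4 (7.40) were dimmer, and Calml3 did not pass. G protein subunits passed in 29 of 35 cases, led by Gnas (14.69), Gnb2 (14.59) and Gng3 (14.32). Protocadherins, adhesion proteins of neurons, passed in 34 of 47 cases, led by Pcdhga9 (14.64), Pcdhac2 (12.03) and Pcdh20 (12.01). The Pcdhga9 probe lists 4 genes of its cluster, so its value may join several of them.

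Neuropeptide genes were measurable in 19 of 24 cases. Cck and Sst were far brighter than the median of their list, which lay at percentile 62.0, and Penk and Grp (10.85) came next. Npy (10.31) and Pdyn (10.35), the prodynorphin of granule cells, lay at percentiles 79.4 and 79.7, and the second Pdyn probe stood at 2.59. Vip (8.28), of interneurons that inhibit other interneurons, Crh (7.39) and Gal (7.15) were dimmer. The peptides of the hypothalamus Hcrt (4.17), Agrp (4.0) and Pmch (3.70) did not pass.

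Neurotrophins support neurons and their synapses through receptor kinases. Ntrk3 (12.29) and Ntrk2 (12.28), the receptors of NT-3 and BDNF, lay in the brightest 10.0% with all 4 and 3 probes above 9.90. Their ligands Bdnf (9.61) and Ntf3 (9.60) lay at percentile 73.6. The low-affinity receptor gene Ngfr (6.45) was dimmer but passed, while Ntf5 (3.58) did not.

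Immediate early genes, which neurons switch on within minutes of activity, were measured after the Y-maze session. Of 18 genes, 14 passed, with a median percentile of 69.1. Arc (13.22), Nr4a1 (12.78), Egr1 (12.38) and Nr4a2 (12.11) lay in the brightest 10.0%. Npas4 stood at 11.15 and Fos at 8.16. Ier2 (4.0), Egr3 (3.70) and Fosl1 (1.00) did not pass. Genes of the glucocorticoid response all passed, 8 of 8, with a median percentile of 86.1. The target gene Zbtb16 (12.26), Per1 (11.86), the receptor gene Nr3c1 (11.70), Sgk1 (11.21), Tsc22d3 (11.20), the enzyme gene Hsd11b1 (11.11) and Fkbp5 (9.91) lay at or above percentile 76.0. Nr3c2, the mineralocorticoid receptor that is rich in hippocampal neurons, stood at 7.88. The second probes of Per1 and Nr3c1 stood at 3.81 and 6.88. These mice had been handled, dosed daily and tested, and no untouched group was on these arrays, so levels at rest cannot be told apart from levels after handling.

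Genes of the amyloid and tau pathways, the subject of the series, were bright in these control mice. The amyloid precursor is cut by β-secretase and then γ-secretase to release amyloid β, or by α-secretase within that stretch. Of 12 genes, 10 passed. App (14.55) lay at percentile 99.2 beside its relatives Aplp1 (14.91) and Aplp2 (12.83). Among the cutting enzymes, Psenen (12.63), Bace1 (11.47), the β-secretase, Adam10 (10.36), the α-secretase, and Psen2 (9.68) were among those that passed. Aph1b, at a level of 9.57, missed the threshold with a score of 2.20, although its second probe passed, and Ncstn (4.32), a further γ-secretase subunit, did not pass. In the second list, of clearance, tau and lipid carriers, 10 of 11 genes passed, with a median percentile of 91.1. Apoe and Clu led, and Mapt (14.05), tau, lay at percentile 98.4. The degrading enzyme gene Ide (9.83) passed, Ece1 (6.63) was dimmer, and Mme (2.81), which encodes neprilysin, did not pass.

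Transcription factors that pattern the brain are named here by region. All 15 factors of the forebrain passed, 7 of them in the brightest 10.0%, with a median percentile of 88.2. Neurod2 (13.11), Klf9 (12.92) and Bcl11a (12.71) were among the brightest, Lhx2 (12.40) and Zbtb20 (12.67), which pattern the hippocampus, were close, and Neurod1 (7.51) and Emx2 (6.49) were among the dimmest. The second Bcl11a probe stood at 3.32. Of 14 factors of the midbrain and hindbrain, 3 passed, Barhl1, En2 (5.74) and Gata2 (5.58), with a median percentile of 18.1. The second Barhl1 probe had no positive net signal. Pax7 and Gata3 had net signals of 0 or less. Hox genes, which pattern the hindbrain and spinal cord, passed in 1 of 40 cases, and that gene, Hoxa9 (4.75), had a score of 2.82 and a second probe at 2.32. Among 41 Lhx, Nkx, Dlx and Pax names, 10 passed, led by Lhx6 (12.79), of interneurons, Lhx2 and Dlx3 (9.09). Lhx6 passed by 1 of its 3 probes, the next standing at 4.91.

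Signalling genes of the immune system were read against the 57.7% of all genes. Of 30 cytokines and chemokines, 8 passed (26.7%), with a median percentile of 27.4, which rose to 57.8 with genes of a single probe left out. These were Cx3cl1, Cxcl12 (12.18), Tgfb2 (11.24), Il34 (10.96), Csf1 (9.35, and 5.0 by its next probe), Il33 (9.25), Cxcl10 (6.73) and Ccl5 (6.51). The second Cxcl10 probe stood at 2.32. Cx3cl1, Il34 and Csf1 are ligands of microglial receptors. The inflammatory genes Il1b (2.61), Tnf, at a net signal that rounds to 0, and Il6, at -8 units, were not well above background. Interleukin and interleukin receptor names passed in 23 of 83 cases (27.7%), led by Il11ra1 (11.15), Il34 and Il18 (10.78). Chemokine names passed in 14 of 33 cases (42.4%), led by Cxcl11 (14.20), Cxcl14 (12.55) and Cxcl12. The Cxcl11 probes have no listed hit that matched a RefSeq gene. Toll-like receptors passed in 7 of 12 cases (58.3%), close to the share over all genes, led by Tlr9 (9.67), Tlr13 (7.55) and Tlr7 (5.86). The 15 genes matched as type I interferons included the receptors Ifnar1 (9.26) and Ifnar2 (9.96), which were the 2 that passed, so none of the 13 interferons did. Among 19 names of T cell receptor and immunoglobulin genes, the match also caught Tradd (9.39) and Ighmbp2 (9.16, and 4.0 by its second probe), and Igh-VJ558 (5.98) and Trav7n-5 (5.39) were the only others to pass.

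The largest families at background were those of sensory and barrier tissues. Olfactory receptors passed in 16 of 1099 cases (1.46%), against 57.7% of all genes. The brightest were Olfr544 (9.52), Olfr1443 (8.03) and Olfr373 (6.69). Olfr544 lay at percentile 72.9, and it has 1 probe. Vomeronasal receptors passed in 6 of 257 cases, led by Vmn1r217 (6.30), Vmn2r88 (6.02) and Vmn1r52 (5.64), and taste receptors in 2 of 38, Tas2r109 (5.88) and Tas1r3 (5.70). None of 14 trace amine receptors and none of 61 defensins passed. Keratins passed in 13 of 52 cases, led by Krt222 (12.61), Krt73 (8.27) and Krt9 (8.05), and keratin-associated proteins of hair in 11 of 51, led by Krtap16-4 (8.90), Krtap20-2 (8.80) and Krtap4-8 (8.56). The second Krt222 probe stood at 5.46. Among 67 names of ADAM and serine proteases, 16 passed, led by Adam15 (13.71), Adam11 (12.22) and Adam22 (10.87, and 5.04 by its next probe).

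**Figure D5:**
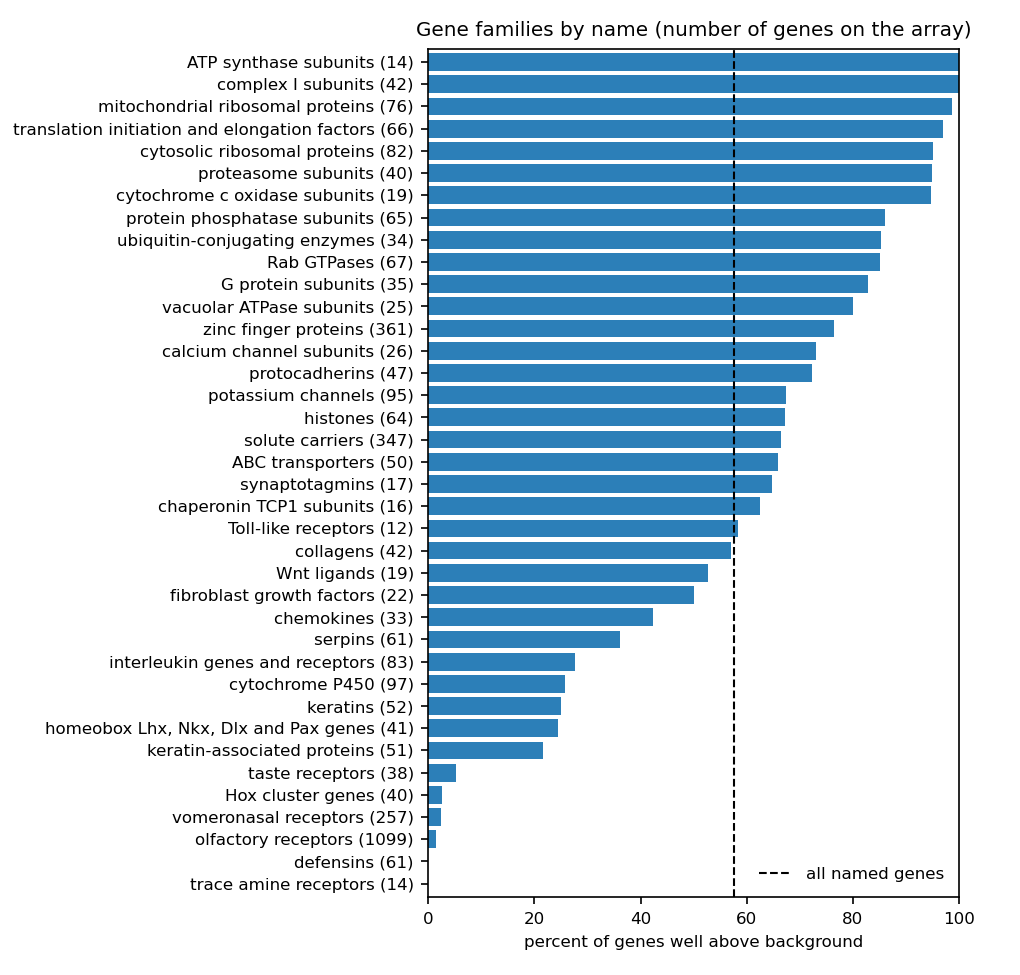
Percent of genes well above background (horizontal axis) in 38 gene families matched by name (rows, with the number of genes on the array in brackets) on the normal control array. The dashed line marks the 57.7% of all named genes. The bars run from 100% for ATP synthase and complex I subunits to 1.46% for olfactory receptors and 0% for defensins and trace amine receptors.

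Families of mixed function passed in shares on both sides of the 57.7% of all genes. Cytochrome P450 genes, mostly of liver, passed in 25 of 97 cases, led by Cyp2u1 (12.93, and 3.81 by its second probe), Cyp2j9 (10.55) and Cyp26b1 (10.17), and serpins in 22 of 61, led by Serpini1 (13.58), the neuronal neuroserpin, Serpina3n (10.73) and Serpinb6c (10.65). Collagens passed in 24 of 42 cases, none in the brightest 10.0%, led by Col6a1 (10.71), Col1a2 and Col16a1 (9.86). Wnt ligands passed in 10 of 19 cases, led by Wnt10a (9.34), Wnt5a (8.10) and Wnt5b (7.95). Fibroblast growth factors passed in 11 of 22 cases, led by Fgf23 (11.68), Fgf12 (11.53) and Fgf1 (11.19, and 2.32 by its second probe). Fgf23 is a hormone of bone, and its second probe had a net signal of 2. Solute carriers passed in 231 of 347 cases (66.6%). Besides Slc10a1, they were led by Slc25a4 (15.13), the mitochondrial exchanger of ADP and ATP, and Slc22a17 (15.11). Zinc finger genes named Zfp passed in 276 of 361 cases (76.5%), with a median percentile of 57.4, and 16 lay in the brightest 10.0%. They were led by Zfp628 (15.09, and 8.79 by its second probe), Zfp408 (13.97) and Zfp622 (13.72). Histones passed in 43 of 64 cases, led by H2afz (13.59), H2afj (13.42) and Hist1h2af (12.86), and ABC transporters in 33 of 50, led by Abcg4 (13.01), Abcc8 (12.46) and Abcd3 (12.25).

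The arrays of the other groups gave the same picture for most genes. They were scanned on the same slide and read by the same rule, with 13902 genes well above background on ACO and 14335 on ASO. Of the 13709 genes of the normal control array, 13296 were shared with ACO, 13455 with ASO and 13180 with both. The shared genes had a median level of 9.45, and the 529 that were not shared with both had a median of 5.29. Percentiles of genes well above background moved by a median of 0.606 points on ACO and 1.04 points on ASO, and 95% of them by less than 2.81 and 4.10 points. Among the 8 markers, Prox1 lay at percentiles 57.4, 57.2 and 54.4 on NCO, ACO and ASO. Gfap lay at 87.4, 87.4 and 92.8, and Wfs1 at 93.2, 92.5 and 94.3. Percentiles of genes not well above background moved by a median of about 6 points (5.98 and 5.97), so the order of such genes was not read. The same probes carry the same brightness to each array, so this second reading bears on the spot and the pool, and not on differences between probes.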

How the data were processed

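Hippocampal RNA was measured on 1 one-colour array per group, and NCO was analysed here. The authors scanned the slide at 532 nm on a GenePix 4000B and deposited spot and background intensities, the percent of saturated pixels and a signal to noise score; per the file headers, GenePix Pro 6.1.0.4 made them without normalizing. Of 45220 spots, 43020 were gene spots; 2 with a bad mark were left out, which gave 39427 probes. The median local background was 44 units. Spots of 1 probe were averaged. The deposited value table was not used here. Agreement of the score with its formula was checked from the deposited columns.

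Gene names are those of the files. Listed hits were named through a RefSeq table (assembly GRCm38.p6), used for names only. Of 667 list symbols 664 matched. Members and lists were chosen with earlier results of these data known. Named were the 8 markers, the 25 brightest genes without a predicted, clone or locus name, all genes of lists of up to 8, the 4 brightest and up to 3 dimmest genes of longer lists, and the 3 brightest of each family; others are extra examples chosen after their values were seen. Some genes that this rule names are not reported here. Alternatives were other score thresholds, other background corrections (limma 3.58.1 in R 4.3.3), other probe rules and the other arrays. Levels, ranks and figures came from Python (3.11.15), pandas (2.3.3), numpy (2.4.6) and matplotlib (3.10.9). The ranking was tested on simulated data whose spots followed their set levels apart from noise. That test therefore did not cover differences in brightness between probes.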

Additional observations from a re-analysis of the deposited data

Results flagged for a closer look

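Probes to which the files give no gene name entered no gene list. Of 7959 such probes, 2535 (31.9%) were well above background, against 1 of 153 negative control spots and 55.7% of the probes with a name. The brightest reached a level of 15.89. What these probes measure was not analysed here.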

How the results depend on the processing

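The number of genes well above background, 13709, stayed within 11771 and 17245 under 7 alternatives: 14325 at a score of at least 2, 12737 at a score of at least 4 and 11771 with the dimmest probe of each gene. Of 64 lists, 43 had a median percentile above 50, and 36 to 43 did so under 8 alternatives. The low end came with genes of a single probe left out, which kept 60 lists and carried 9 of them across 50. The genes left were ranked anew among genes with 2 or more probes, so list medians also moved with the scale. The muscarinic receptors went from 31.9 to 77.7, a value that rests on Chrm1 alone. The 25 brightest genes were the least stable result: 13 of them remained when a gene was given the median of its probes, whereas 22 remained without saturated spots, 22 without probes that list several genes and 23 with spot means. The score decides which genes are called, and 2585 genes were brighter than any negative control spot without passing it. A gene that did not pass is therefore not shown to be absent. No paired analysis was possible because each group had 1 array and no test was run.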

Other observations

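A few further bright genes were singled out after their values were seen. F10, a clotting factor made by the liver, stood at 15.47 by a probe that lists 2 genes, and its second probe had a net signal of -6. Cxcl11, an interferon-induced chemokine, stood at 14.20 and 9.81 by its 2 probes, both well above background. No listed hit of either Cxcl11 probe matched a RefSeq gene. Exosc2, a subunit of the RNA exosome, stood at 15.39 by its only probe. On the ACO and ASO arrays F10 again lay above percentile 99.8 and Exosc2 at 99.9, by the same probes. The source of these signals was not tested.

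RefSeq types of gene differed in how many were measurable. Of 250 genes that RefSeq lists as pseudogenes, 146 (58.4%) were well above background, close to the 57.7% of all genes, and 71 lay in the brightest 10.0%. Of 251 transcribed pseudogenes, 92 (36.7%) were well above background and 21 lay in the brightest 10.0%. Of 1352 long non-coding RNA genes, 307 (22.7%) and 10 did. Pseudogenes share sequence with their parent genes, and which of them a probe measured was not tested.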
